A study of Mus musculus with 6 samples.

Results

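The BCL-2 family decides whether a cell keeps its mitochondria intact or dies by apoptosis, and 10 of its genes were followed here in CAFs (cancer-associated fibroblasts, which make up much of a tumour's supporting tissue) after silencing of Stat3, a transcription factor. The genes were taken by symbol: the survival genes Bcl2, Bcl2l1 and Mcl1, the pore-forming genes Bax and Bak1, and the genes of the BH3-only proteins Bcl2l11, Bid, Bad, Bbc3 and Pmaip1. All 10 were among the 24015 symbols of the deposited table, and all 10 were among the 13284 genes that passed the filter on low counts. The cells were primary CAFs from NeuT mammary tumours, which form in mice with an activated rat Her2/neu transgene in breast epithelium, and the mice had a BalbC background. They received nanoparticles with anti-Stat3 siRNA (3 samples) or with control siRNA (3 samples) at 1 ug/mL for 72 hours, and RNA was sequenced after poly(A) selection. The labels do not say how many animals or cultures the samples came from, so the spread between samples may be technical in part. Samples with the same number in both groups deviated together, and each number is called a pair.

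As background, BCL-2, BCL-XL (the main product of Bcl2l1) and MCL-1 hold BAX and BAK in check on the outer mitochondrial membrane. BH3-only proteins bind the survival proteins, and some of them also activate BAX and BAK, which then form pores and release cytochrome c. In many tumour cells Bcl2l1, Mcl1 and Bcl2 are described as target genes of STAT3, and Bbc3, Pmaip1 and Bax as target genes of p53.

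Total counts were between 12998168 and 18683852 per sample, which places the level that a count of 0 allows at between 0.161 and 0.231 CPM (3 counts of the library total, counting error only). CPM, the unit of level used throughout, is the count scaled to library size with TMM factors. Stat3 itself had 34.7, 81.9 and 78.9 CPM in anti-Stat3 samples 1 to 3, against 220, 359 and 405 CPM in control samples 1 to 3, so the groups did not overlap. Stat3 fell in edgeR with the pair as a block (log2 change -2.38 ± 0.14, SE, adjusted p = 0.00266), and in DESeq2 with the group alone (-2.33, adjusted p = 4.7e-05), while in edgeR with the group alone its adjusted p was 1.00. Socs3, a feedback target of STAT3, had 10.9, 18.6 and 38.1 CPM in anti-Stat3 samples, against 25.2, 85.9 and 156 CPM in control samples. Of the 12 fibroblast markers, all passed the filter, with Col1a1 between 7417 and 23429 CPM over the 6 samples. These 12 summed to 30884, 46487 and 56389 CPM in anti-Stat3 samples and 26489, 68588 and 71732 CPM in control samples. Pair 1 had the lowest sum in both groups, although Postn was highest there. The summed level of 14 macrophage markers was 41.7, 1624 and 2718 CPM in anti-Stat3 samples and 46.5, 1714 and 2352 CPM in control samples, so that pairs 2 and 3 held macrophage transcripts and pair 1 held few. The summed level of 13 epithelial markers was 224, 561 and 88.0 CPM in anti-Stat3 samples and 238, 595 and 86.9 CPM in control samples, and 9 endothelial markers summed to at most 43.0 CPM. Wfdc2 was the only epithelial marker called, in blocked DESeq2 alone (-0.84, adjusted p = 0.042), beside 1.66% of all genes. In bulk RNA, fewer cells of a type and less RNA per cell cannot be told apart. The 9 lymphocyte markers summed to at most 1.44 CPM in any sample, with Cd3d and Cd8a at 0 counts in all 6.

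The promoter windows of the members were searched for the letters that STAT proteins are known to bind. RefSeq windows of 250 bases before to 50 bases after each transcript start (build GRCm38.p6, used for sequence only, since the counts were made on mm9) were searched for 9 members, in 15 windows. No window of Pmaip1 was searched. The search of the members left out 1 chromosome, which the shares of all genes below include. The motif TTCNNNGAA, which reads the same on both strands, was in the windows of 0 of 9 members, beside 9.55% of all 27025 genes in the table. The same ends, TTC and GAA, with 4 bases between them, also read the same on both strands. They were in 1 of 9 members, Bcl2l1, beside 8.01% of all genes. The match was in 1 window of Bcl2l1, and its other windows held neither motif. Shown are the Bcl2l1 window with this match, in capitals, and windows of Bid and Bbc3, the members with the largest mean of the 3 pair changes (Bcl2 exceeds Bid in edgeR with the group alone, and both in the length-corrected fit given further on), which hold neither motif and so have no capitals. The first base of the match lies 4 bases before the start. A match is a description of letters and not a binding site, and its absence covers these windows alone.
Bcl2l1, chr2:152828440-152828739, minus strand: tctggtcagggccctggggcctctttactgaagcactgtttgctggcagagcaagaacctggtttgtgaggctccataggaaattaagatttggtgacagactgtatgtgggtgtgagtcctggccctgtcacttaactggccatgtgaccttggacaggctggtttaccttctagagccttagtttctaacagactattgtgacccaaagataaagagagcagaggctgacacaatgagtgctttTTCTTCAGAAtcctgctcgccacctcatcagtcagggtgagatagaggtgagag
Bid, chr6:120916775-120917074, minus strand: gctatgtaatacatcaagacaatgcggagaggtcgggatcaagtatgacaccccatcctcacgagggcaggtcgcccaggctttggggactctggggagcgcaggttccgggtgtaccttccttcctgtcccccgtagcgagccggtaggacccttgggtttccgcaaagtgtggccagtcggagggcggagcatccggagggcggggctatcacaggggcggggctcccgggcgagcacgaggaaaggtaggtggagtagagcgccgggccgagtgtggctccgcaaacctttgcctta
Bbc3, chr7:16309333-16309632, plus strand: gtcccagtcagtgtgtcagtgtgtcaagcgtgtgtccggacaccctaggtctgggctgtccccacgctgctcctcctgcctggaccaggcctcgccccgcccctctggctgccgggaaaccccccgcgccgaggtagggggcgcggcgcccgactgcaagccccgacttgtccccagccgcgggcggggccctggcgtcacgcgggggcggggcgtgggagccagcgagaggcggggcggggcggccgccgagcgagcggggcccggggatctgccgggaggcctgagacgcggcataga

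No member passed the test for a difference between anti-Stat3 and control siRNA, neither with the group alone nor with the pair as a block. With the group as the only term, the quasi-likelihood test of edgeR called 0 of 10 members at an adjusted p under 0.05, where it called 0 of all tested genes (0%), and 0 of 10 had an unadjusted p under 0.05, beside 1.77% of all genes; each member's adjusted p was 1.00. With the pair as a block edgeR again called 0 of 10, beside 0.0602% of all genes, and DESeq2 with the block called 0 of 10, beside 1.66%. At an unadjusted p under 0.05, blocked edgeR had 6 of the 10 members, beside 10.8% of all genes, and blocked DESeq2 had 5, beside 8.05%. The groups separated for 0 of 10 members, beside 4.67% of all genes, so this count does not set the members apart from other genes. In 5 members (Bcl2, Bax, Bak1, Bid and Bbc3) the anti-Stat3 sample was the higher one in all 3 pairs, beside 17.3% of all genes, and in 1 (Bcl2l11) the lower one, beside 16.4%. The median log2 change of the 10 members, anti-Stat3 over control siRNA, was 0.29 with the group alone, where the median of all tested genes was -0.0028. The medians in pairs 1 to 3 were 0.10, 0.52 and 0.40 over the members, against 0.0011, 0 and 0.01 over all tested genes. No member was called by DESeq2 with the group alone (0.128% of all genes called), limma-voom with the block (0.0602%) or edgeR with the naming scheme of the descriptions as a term (0%).

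**Figure D1:**
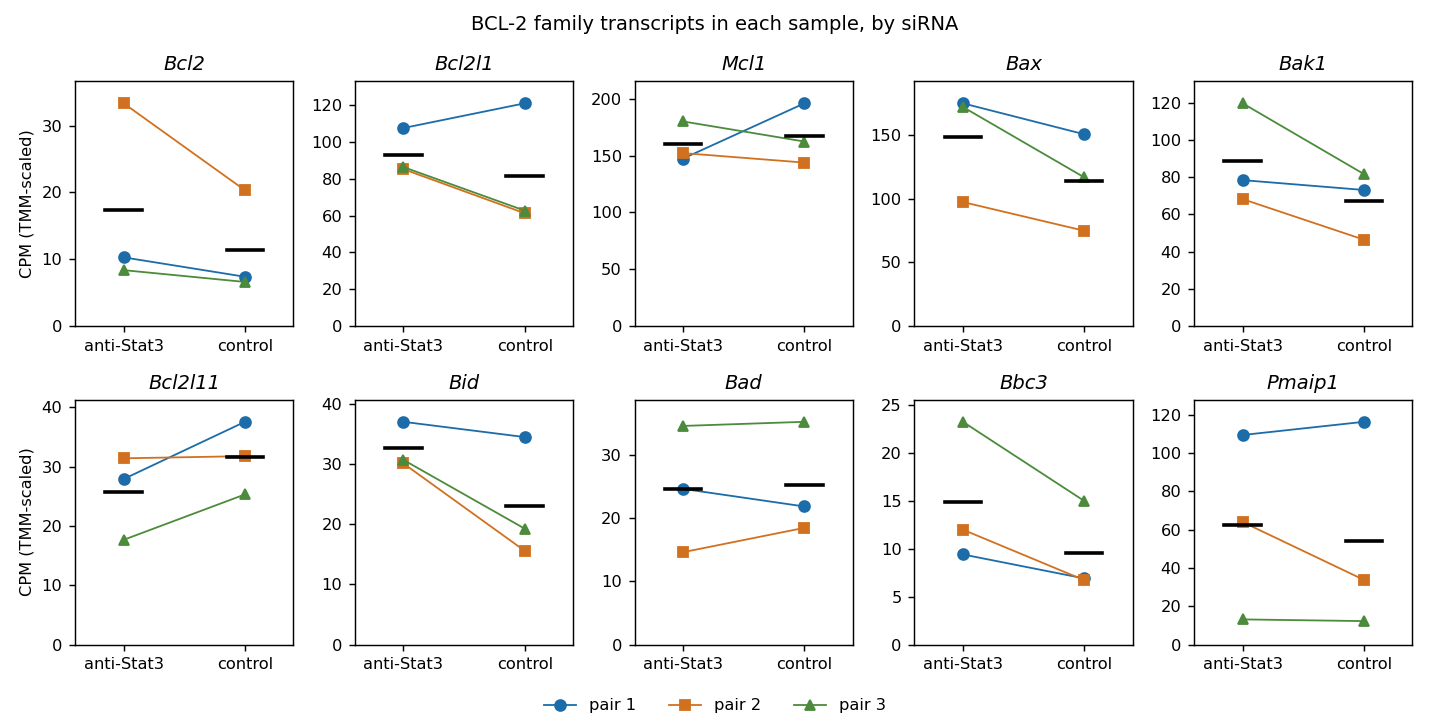
Level of each of the 10 members in CPM (linear axis from 0) in the 3 anti-Stat3 and the 3 control siRNA samples, with lines joining samples of the same number and black bars at the group means. The groups overlap in every panel, and Pmaip1 spans 12.2 to 116 CPM in the control samples.

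Among the survival genes, Bcl2 was the scarcest per exon length and differed most between pairs. Bcl2, the founding member of the family, had 10.3, 33.3 and 8.36 CPM in anti-Stat3 samples 1 to 3, against 7.37, 20.3 and 6.60 CPM in control samples 1 to 3. Each anti-Stat3 sample lay above the control sample of its pair, but pair 2 stood above both other pairs in either group. Pair 2 was also the pair with the highest sum of epithelial markers, although one of them, Krt19, was lowest there in both groups. The part of these markers in the Bcl2 level was not tested. Its pair changes averaged 0.51 ± 0.19 (SD, n = 3 pairs), and the log2 change was 0.60 ± 0.68 (SE, adjusted p = 1.00) in edgeR with the group alone and 0.53 ± 0.13 (SE, adjusted p = 0.198) in edgeR with the block. Without anti-Stat3 sample 2, which breaks that pair, the group-alone change of Bcl2 was -0.31.

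Bcl2l1, whose main product BCL-XL is often described as a product of STAT3 activity, differed in direction between pairs. Bcl2l1 had 108, 85.3 and 86.5 CPM in anti-Stat3 samples, against 121, 61.3 and 62.8 CPM in control samples. Control sample 1 was the highest of all 6, while control samples 2 and 3 were the lowest. The pair changes were -0.17, 0.48 and 0.46, and the blocked edgeR change was 0.25 ± 0.15 (SE, adjusted p = 0.586). The 95% interval of the change in limma-voom with the block, not corrected for the number of genes, was -0.085 to 0.60 on the log2 scale, or 0.943-fold to 1.51-fold. Counts per gene do not separate the long survival form of Bcl2l1 from its short death-promoting splice form.

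Mcl1, a short-lived survival protein, was the most even member. Mcl1 had 147, 152 and 180 CPM in anti-Stat3 samples, against 196, 144 and 162 CPM in control samples. The groups overlapped, with the lowest anti-Stat3 value in pair 1, where the control value was the highest. The blocked edgeR change was -0.06 ± 0.14 (SE, adjusted p = 0.910), and the limma-voom interval was 0.773-fold to 1.19-fold. Its levels differed by 1.36-fold between the control samples, where the median tested gene differed by 1.46-fold.

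The pore-forming genes Bax and Bak1 were both higher in the anti-Stat3 sample of every pair, by amounts that did not pass. Bax had 175, 97.4 and 172 CPM in anti-Stat3 samples, against 151, 74.8 and 117 CPM in control samples. Its pair changes averaged 0.38 ± 0.17 (SD, n = 3 pairs), and the blocked edgeR change was 0.38 ± 0.11 (SE, adjusted p = 0.248). Pair 2 was the lowest in both groups, and the 2.01-fold range between control samples was wider than the change.

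Bak1 had 78.4, 68.2 and 120 CPM in anti-Stat3 samples, against 73.1, 46.4 and 81.6 CPM in control samples. Its pair changes of 0.10, 0.55 and 0.55 were smallest in pair 1. The blocked edgeR change of Bak1 was 0.40 ± 0.13 (SE, adjusted p = 0.276), and the limma-voom interval was 1.08-fold to 1.62-fold, not corrected for the number of genes. Of the annotated exons, Bax shares 22.1% with Gm45808 on the same strand, Bak1 shares 10.7% with Ggnbp1 on the opposite strand and Bcl2 shares 6.1% with an antisense gene. The sources do not give the annotation used or say whether counting used the strand, so these levels are uncertain to that extent. For Bax the strand would not separate the shared part, since that overlap is on the same strand.

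Of the BH3-only genes, Bid and Bbc3 had the largest mean pair changes. Bid, whose protein is cut by caspase-8 downstream of death receptors, had 37.1, 30.2 and 30.8 CPM in anti-Stat3 samples, against 34.6, 15.6 and 19.3 CPM in control samples. Control sample 1 lay among the anti-Stat3 samples, and control samples 2 and 3 lay below all of them. The pair changes of Bid were 0.10, 0.94 and 0.67, and the blocked edgeR change was 0.57 ± 0.17 (SE, adjusted p = 0.256). The 20 listed interferon-stimulated genes also differed least in pair 1, with median log2 changes of 0.41, 3.41 and 3.40 in pairs 1 to 3. In blocked DESeq2, 2 of them, Psmb9 and Cxcl10, rose (adjusted p = 0.012 and 0.049), beside 1.66% of all genes called. Blocked edgeR called 0 of the 20, beside 0.0602% of all genes, and edgeR with the group alone called 0, beside 0%. DESeq2 with the group alone called 3, beside 0.128%. All 20 were higher in the anti-Stat3 sample of every pair, beside 17.3% of all genes. The 20 genes summed to 4473, 3731 and 4145 CPM in anti-Stat3 samples, against 3429, 393 and 397 CPM in control samples. Their part in the Bid values was not tested.

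Bbc3, which encodes the p53-induced protein PUMA, had 9.40, 12.0 and 23.2 CPM in anti-Stat3 samples, against 6.90, 6.72 and 14.99 CPM in control samples. Its pair changes were 0.44, 0.82 and 0.63, with the largest in pair 2. This gave a mean of 0.63 ± 0.19 (SD, n = 3 pairs), or 1.55-fold, with a blocked edgeR change of 0.64 ± 0.14 (SE, adjusted p = 0.170, and 0.125 in blocked DESeq2). Pair 3 was the highest in both groups, so control sample 3 lay above anti-Stat3 samples 1 and 2. Without pair 1, blocked edgeR called Bid (0.81, adjusted p = 0.010) and Bbc3 (0.73, adjusted p = 0.039), beside 3.02% of all genes called higher there. That fit called 5.2% of all genes in either direction. Blocked DESeq2 without pair 1 called neither gene (adjusted p = 0.059 for Bid and 0.296 for Bbc3), beside 3.19% of all genes. Leaving out pair 2 gave no member call in edgeR (0.0225% of all genes) or DESeq2 (0.105%), nor did leaving out pair 3 (0% and 0.147%).

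Bcl2l11, which encodes BIM, an activator of BAX that survival signalling represses, was the only member lower in the anti-Stat3 sample of every pair. Bcl2l11 had 27.9, 31.4 and 17.6 CPM in anti-Stat3 samples, against 37.5, 31.8 and 25.3 CPM in control samples. The pair changes of -0.43, -0.02 and -0.52 were close to 0 in pair 2. The blocked edgeR change was -0.32 ± 0.13 (SE, adjusted p = 0.452), and the limma-voom interval was 0.653-fold to 0.997-fold. The gene has 6.896 kb of annotated exon, and pair 3 changes by exon length are given below.

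Bad, which is switched off by phosphorylation downstream of growth factors, had 24.6, 14.6 and 34.6 CPM in anti-Stat3 samples, against 21.8, 18.5 and 35.3 CPM in control samples. Its pair changes of 0.17, -0.34 and -0.03 had no common sign, and the limma-voom interval was 0.784-fold to 1.19-fold. Of its annotated exons 21.6% is shared with Gpr137 on the opposite strand.

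Pmaip1, which encodes NOXA, a partner of MCL-1, differed more between pairs than between siRNAs. Pmaip1 had 109, 64.0 and 13.1 CPM in anti-Stat3 samples, against 116, 33.8 and 12.2 CPM in control samples. The order was the same in both groups, with pair 1 the highest and pair 3 the lowest. The 9.42-fold range between control samples was wider than that of 95.9% of all tested genes, and the pair changes were -0.09, 0.92 and 0.10. The blocked edgeR change was 0.32 ± 0.20 (SE, adjusted p = 0.608). The sum of 11 listed stress-response genes was highest in pair 1, at 1203, 656 and 776 CPM in anti-Stat3 samples and 1957, 575 and 793 CPM in control samples. Hmox1 made up much of the pair 1 sums, at 590 CPM in the anti-Stat3 and 1205 CPM in the control sample. The list did not move as one, since Ddit3 was lowest in pair 1 in both groups. The part of the stress-response genes in the Pmaip1 level was not tested.

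**Figure D2:**
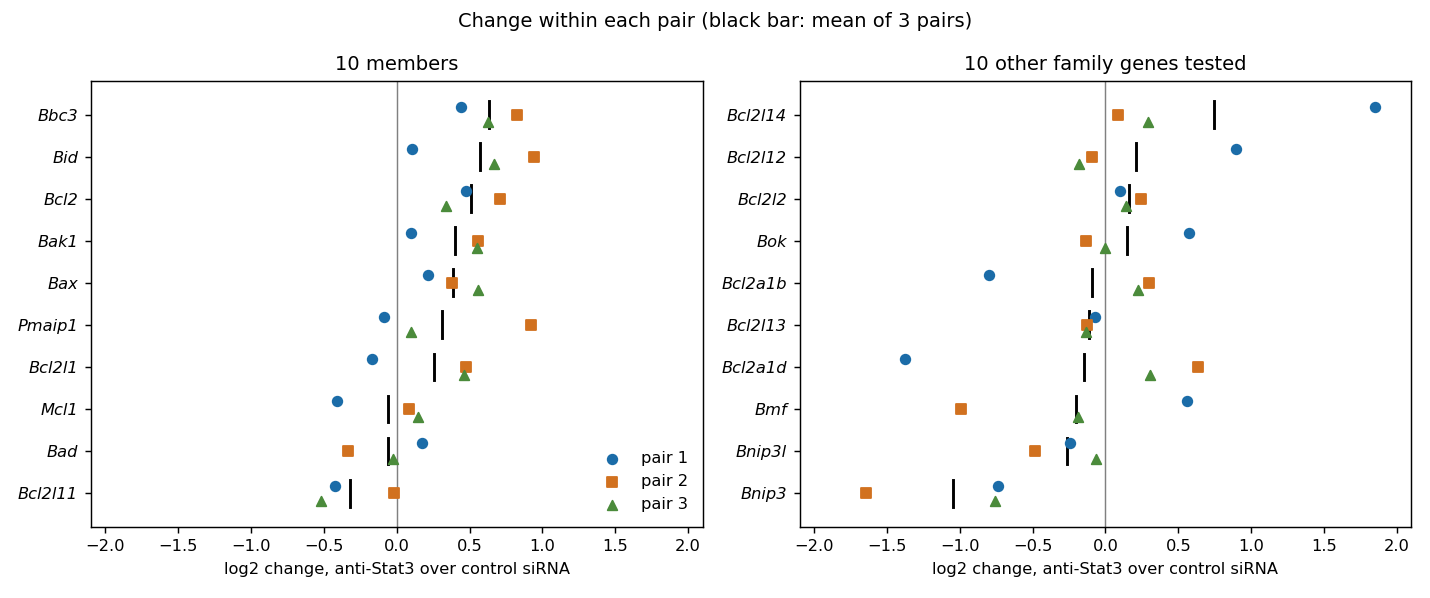
Log2 change of anti-Stat3 over control siRNA within each of the 3 pairs for the 10 members (left) and the 10 other family genes that passed the filter (right), with a black bar at the mean. Bbc3 has the largest mean among the members (0.63), and the Bnip3 changes (-0.74, -1.64 and -0.76) lie left of all other means.

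In pair 3 the median change differed with annotated exon length, and the part of length in the members' values was not tested. Across all tested genes with an annotated length (95.6%), the median change in pair 3 was 0.21 for genes with up to 2 kb of exon, 0.06 for 2 to 4 kb, -0.12 for 4 to 6 kb, -0.25 for 6 to 8 kb and -0.45 for over 8 kb. In pair 1 the medians of the shortest and longest classes were 0.05 and -0.02, and in pair 2 they were -0.04 and 0.04. Relative to the median of its own length class, Bcl2l11 had a pair 3 value of -0.26, where its plain value was -0.52, and the short Bax (0.867 kb) had 0.35, where its plain value was 0.56. The long Bcl2 (9.157 kb) had a pair 3 value of 0.79 on this scale, where its plain value was 0.34, and Bbc3 (1.814 kb) had 0.42. With a correction for transcript length in the blocked edgeR fit, chosen after seeing the data, the log2 changes were 0.65 ± 0.11 for Bcl2, 0.58 ± 0.13 for Bbc3, 0.52 ± 0.17 for Bid, 0.36 ± 0.11 for Bak1, 0.30 ± 0.10 for Bax and -0.22 ± 0.11 for Bcl2l11 (SE). The smallest adjusted p among the 10 was 0.187, for Bcl2, so no member passed in that fit, beside 0.0301% of all genes.

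Scaled to exon length, the members kept one order of mean levels in both groups. Bax was the highest, at 171 ± 50.7 CPM per kb with anti-Stat3 siRNA and 132 ± 43.8 CPM per kb with control siRNA (SD, n = 3 each). Mcl1 followed at 46.8 ± 5.15 CPM per kb with anti-Stat3 siRNA and 49.0 ± 7.74 CPM per kb with control siRNA, and its samples did not overlap with those of Bax in either group. Bak1 had 37.2 ± 11.4 CPM per kb with anti-Stat3 siRNA and 28.1 ± 7.70 CPM per kb with control siRNA, and overlapped with Mcl1 in the anti-Stat3 samples but not in the control samples. Bcl2l1, at 24.0 ± 3.24 CPM per kb with anti-Stat3 siRNA and 21.0 ± 8.78 CPM per kb with control siRNA, overlapped with Bak1 in the control samples but not in the anti-Stat3 samples. Pmaip1 ranged widely, at 22.8 ± 17.6 CPM per kb with anti-Stat3 siRNA and 19.8 ± 20.1 CPM per kb with control siRNA. It overlapped with Bak1, Bcl2l1, Bid, Bad and Bbc3 in both groups, and with Mcl1 and Bcl2l11 in the control samples. Bid, at 14.9 ± 1.76 CPM per kb with anti-Stat3 siRNA and 10.6 ± 4.59 CPM per kb with control siRNA, overlapped with Bad, at 10.3 ± 4.18 CPM per kb with anti-Stat3 siRNA and 10.5 ± 3.71 CPM per kb with control siRNA. Bbc3 averaged 8.20 ± 4.06 CPM per kb with anti-Stat3 siRNA and 5.26 ± 2.60 CPM per kb with control siRNA, within reach of Bad in both groups. Bcl2l11, at 3.72 ± 1.04 CPM per kb with anti-Stat3 siRNA and 4.57 ± 0.89 CPM per kb with control siRNA, overlapped with Bbc3 in the control samples alone. Bcl2 was the lowest at 1.89 ± 1.52 CPM per kb with anti-Stat3 siRNA and 1.25 ± 0.84 CPM per kb with control siRNA, and overlapped with Bcl2l11 in the anti-Stat3 samples alone. The lengths count all annotated exons of a gene once, so a gene with a long untranslated exon such as Bcl2 is placed lower than its coding part alone would place it.

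**Figure D3:**
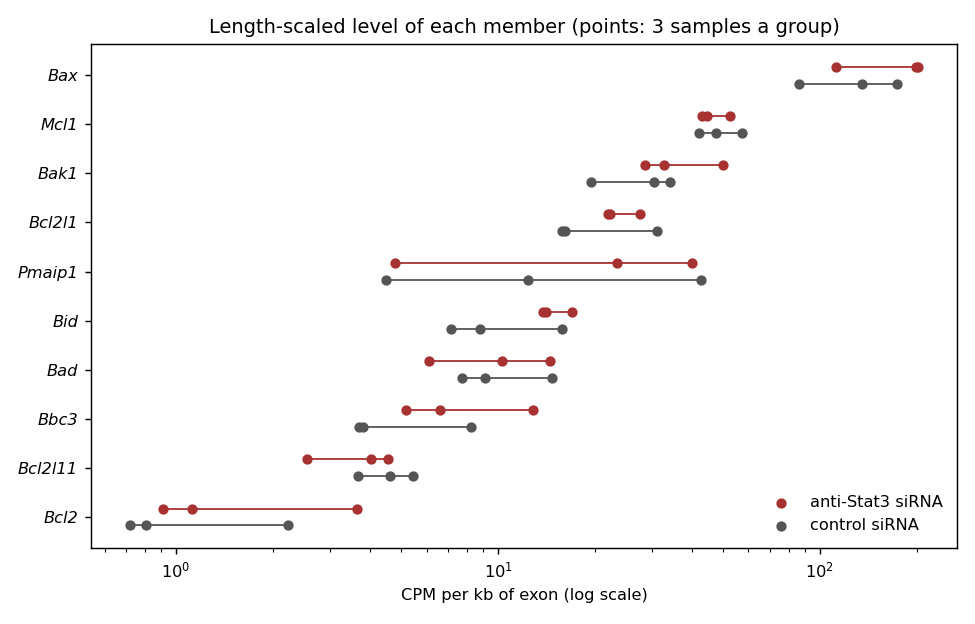
Level of each member in CPM per kb of annotated exon (log axis), with anti-Stat3 siRNA samples above control siRNA samples and 3 points a group joined by a line over their range. Bax samples lie above those of all other members, and Pmaip1 has the widest range.

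The balance between death and survival transcripts is often given as a ratio, and the ratio of Bax to Bcl2 showed no common direction. Bax over Bcl2 was 16.8, 2.91 and 20.3 in CPM in anti-Stat3 samples, against 20.1, 3.67 and 17.4 in control samples. Pair 2 stood apart through its high Bcl2 and low Bax, and the change of the log2 ratio was -0.26, -0.33 and 0.22 in pairs 1 to 3. For Bax over Bcl2l1 the log2 changes were 0.39, -0.10 and 0.10. The ratio of Bbc3 to Mcl1, looked at after the values were seen, was higher in each anti-Stat3 sample than in the control sample of its pair, with log2 changes of 0.85, 0.74 and 0.48. For Bcl2l11 over Mcl1, also looked at after the values were seen, the log2 changes were -0.02, -0.10 and -0.67. These ratios of transcripts were not tested and do not measure the proteins.

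**Figure D4:**
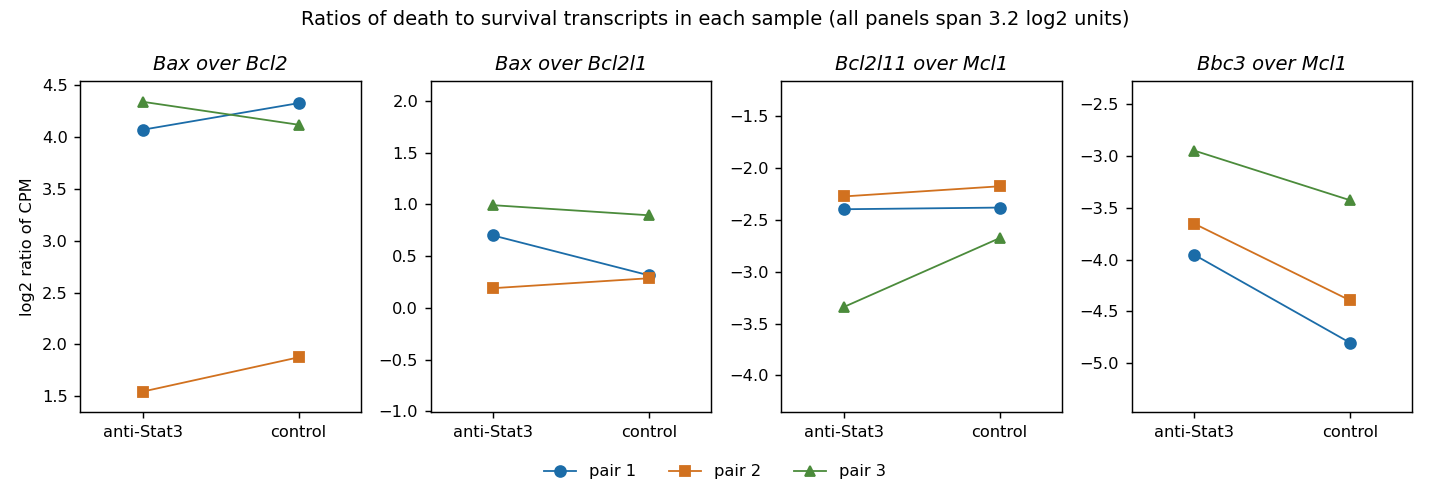
Log2 ratio of CPM for 4 gene pairs in each sample, with lines joining samples of the same number, anti-Stat3 left of control, and every axis spanning the same number of log2 units. Bax over Bcl2 is far lower in pair 2 than in pairs 1 and 3, and Bbc3 over Mcl1 is higher with anti-Stat3 siRNA in all 3 pairs.

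Of 15 other BCL-2 family genes, 10 passed the filter, and 1 of them, Bnip3, was called in the blocked DESeq2 fit, beside 1.66% of all genes. Bnip3, a hypoxia-induced mitochondrial protein that marks mitochondria for autophagy, had 29.3, 31.4 and 65.8 CPM in anti-Stat3 samples, against 48.8, 98.3 and 112 CPM in control samples. Each anti-Stat3 sample lay below its control, although anti-Stat3 sample 3 lay above control sample 1. Bnip3 fell by 1.05 on the log2 scale in blocked DESeq2 (SE 0.21, adjusted p = 2.8e-04). It did not pass in blocked edgeR (-1.05 ± 0.19, SE, adjusted p = 0.160) or in edgeR with the group alone (-1.03 ± 0.43, SE, adjusted p = 1.00). Its annotated exons share 27.2% of their length with an antisense gene. In blocked DESeq2 Bnip3 was not called without pair 2 (-0.75, adjusted p = 0.266), where 0.105% of all genes were called. It was called without pair 1 (adjusted p = 9.0e-05), beside 3.19% of all genes, and without pair 3 (adjusted p = 0.018), beside 0.147%. Blocked edgeR called it only without pair 1 (adjusted p = 0.00207), beside 5.2% of all genes. Without pair 2 its blocked edgeR adjusted p was 0.437, where 0.0225% of all genes were called. The unadjusted p in blocked edgeR was 0.00066 without pair 2 and 0.00072 with all pairs.

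The relative Bnip3l, which clears mitochondria from maturing red blood cells, had pair changes of -0.24, -0.48 and -0.07 and did not pass. Bcl2l2, the survival gene of BCL-W, had 0.10, 0.24 and 0.14. Bcl2l14 had 1.07, 1.41 and 0.69 CPM in anti-Stat3 samples, against 0.20, 1.32 and 0.54 CPM in control samples, levels that rest on few counts. The Bcl2a1 genes, near-identical copies whose single values are uncertain, were present where macrophage markers were: Bcl2a1b had 0.063, 2.76 and 3.38 CPM in anti-Stat3 samples, against 0.20, 2.22 and 2.88 CPM in control samples. Hrk, a death gene of neurons, had 0 counts in all 6 samples, and Bcl2l10 in 5.

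The machinery downstream of BAX and BAK, and the regulators of the family, held no called gene. Of 18 listed genes of the mitochondrial pathway all were tested. Of these, 0 were called by edgeR with the group alone, by blocked edgeR or by blocked DESeq2, beside 0%, 0.0602% and 1.66% of all genes. The median log2 change was 0.04 with the group alone. Vdac2, which holds BAK on the mitochondrial membrane, had a blocked edgeR log2 change of 0.24 ± 0.12 (SE, adjusted p = 0.520). Cycs, the gene of cytochrome c, had one of 0.48 and Endog, a mitochondrial nuclease, one of 0.42, and neither passed.

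Among 23 listed regulators, 22 were tested. Of these, 0 were called by edgeR with the group alone, by blocked edgeR or by blocked DESeq2, beside 0%, 0.0602% and 1.66% of all genes. At an unadjusted p under 0.05 there were 2 in blocked edgeR, beside 10.8% of all genes, and 0 in blocked DESeq2, beside 8.05%. The median was 0.01 with the group alone. Fbxw7, part of the ubiquitin ligase that marks MCL-1 for degradation, had a blocked edgeR change of 0.29 ± 0.12 (SE, adjusted p = 0.421), and Ddit3, a transcription factor of the unfolded protein response, one of 0.28 ± 0.11 (SE, adjusted p = 0.424). Usp9x, which removes ubiquitin from MCL-1, had pair changes of -0.19, 0.03 and -0.88, and Ywhaz, a 14-3-3 protein that holds phosphorylated BAD, had 0.00, 0.24 and 0.40. Trp53 had 102, 80.6 and 77.9 CPM in anti-Stat3 samples, against 99.3, 62.0 and 82.0 CPM in control samples, with no common direction.

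For each member the gene with the most similar pattern was sought by Pearson correlation of log2 CPM over the 6 samples, as a description. The nearest genes were Ppm1k for Bcl2, Sdhaf2 for Bcl2l1, Pvrl3 for Mcl1, Nudcd3 for Bax, Sumf1 for Bak1, Ogfod1 for Bcl2l11, Tor1aip1 for Bid, Aldh7a1 for Bad, Vac14 for Bbc3 and Lrig1 for Pmaip1, with r between 0.975 and 0.999. Each member but Mcl1 had at least 240 genes with r over 0.9 among 11912 searched, and Mcl1 had 13. The 6 points are 3 pairs, so such values mostly describe differences between pairs.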

How the data were processed

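Poly(A) RNA from TRIzol extracts was made into libraries with an Illumina TruSeq kit, as the labels' protocols state. TopHat2 2.0.10, HTSeq and the build mm9 are named in the submitters' processing notes. The authors deposited unnormalized counts per gene symbol for all 6 samples, with totals of 12998168 to 18683852; annotation and strand setting are not given there. Columns were matched to sample titles by the group and number in their names. The column names read shCtrl and shStat3, where the titles read siC and siS3.

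Genes were tested by quasi-likelihood in edgeR 4.0.16 (R 4.3.3) on TMM-scaled counts kept by filterByExpr (minimum count 10, total 15), with group alone in the model. Benjamini-Hochberg adjustment ran over all 13284 tested genes, with a threshold of 0.05. A prior count of 2 entered log2 CPM. Alternatives were DESeq2 1.42.0, limma-voom (limma 3.58.1), other scaling and filtering, left-out samples and pairs, and the replicate number as a block, and the code was tested on simulated data. The p-values rest on the variation among these 6 samples alone, and part of it may be technical. In their deviations from the group means, across genes, same-numbered samples correlated at 0.83, 0.82 and 0.83, so the numbers were taken to pair the samples. The numbers come from the titles, and what a number shares is not stated. Descriptions of pair 3 follow another naming scheme, tried as a batch term; it holds 1 sample a group, so its own value is the pair 3 change. The exact permutation test of 3 against 3 has a smallest two-sided p of 0.1 and was not run.

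Exon lengths came from GENCODE M21 (GRCm38) and promoters from RefSeq. Protein sequences were not used here. The members and lists were chosen with earlier results of these data known. Named genes were the 10 members, their nearest gene by correlation, Stat3 and Socs3, and from each other list those called in any of 3 fits or else up to 4 with the smallest blocked edgeR p. A gene that this rule names is not reported here. Bnip3l, Bcl2l2, Bcl2l14, the Bcl2a1 genes, Hrk, Bcl2l10, Trp53, Hmox1 and the single cell type markers were named after their values were seen.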

Additional observations from a re-analysis of the deposited data

How the results depend on the processing

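No member was called in any of the 9 fits that used all 6 samples, and 185 of the 200 member values under 20 alternatives kept their direction and side of the threshold. The 13 reversed values all left out a sample or pair and concern members with small or uneven changes. Leaving out samples or pairs, the log2 change ranged over -0.31 to 1.31 for Bcl2, -0.16 to 0.12 for Mcl1, -0.36 to 0.29 for Bad and -0.49 to 1.43 for Pmaip1. The other members kept their sign but moved by over 1.5 times: 0.16 to 1.13 for Bbc3, 0.28 to 0.90 for Bid, 0.13 to 0.57 for Bak1, 0.15 to 0.62 for Bax, 0.02 to 0.58 for Bcl2l1 and -0.48 to -0.09 for Bcl2l11. With single samples left out the highest Mcl1 value was 0.058. With the replicate block, Mcl1 was 0.11 in edgeR and 0.12 in DESeq2 without pair 1, Bad was 0.068 in edgeR and 0.069 in DESeq2 without pair 2, and Pmaip1 was -0.0053 in edgeR and -0.0050 in DESeq2 without pair 2. The 2 further values are the calls of Bid and Bbc3 without pair 1.

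The count over all genes depended on the pairing and the tool. Genes called higher and lower were 16 and 1 in DESeq2 with the group alone, 3 and 5 with the replicate block in edgeR, 116 and 104 with the block in DESeq2, 3 and 5 with the block in limma-voom, and 2 and 2 with the block and the length correction, which was chosen after seeing the data. Without pair 1 the blocked fits called 408 and 295 in edgeR and 274 and 158 in DESeq2. Without pair 2 they called 0 and 3 in edgeR and 2 and 12 in DESeq2, and without pair 3 they called 0 and 0 in edgeR and 7 and 13 in DESeq2. With single samples left out, edgeR with the group alone called 0 to 40 higher, the 40 without control sample 1. Called members numbered 2 in blocked edgeR without pair 1 and 0 otherwise, and the members' median ranged over 0.08 to 0.51 when samples or pairs were left out, with 0.51 in both blocked fits without pair 1. Where these differ, the cause was not tested.

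The spread between pairs, up to 9.42-fold between control samples for Pmaip1, limits the fits without the block. Depth limits Bcl2l14, the Bcl2a1 genes and Bcl2l10, which rest on at most 48 counts a sample.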
